A study of Homo sapiens and Mus musculus with 56 samples.

Results

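Interferon-stimulated genes are the genes that cells switch on after interferon binds its receptors, and 44 of them were followed here through 5 leukaemia cell models treated with 2 inhibitors of chromatin-bound proteins. The genes were named as a list of symbols, and each was read from 1 probe set, the one with the highest mean signal among those annotated to that symbol alone. A human probe set was found for 43 of the 44 genes, of 19775 genes on the human arrays, and STAT2 had none with its symbol alone. For 13 members the human probe set may bind other transcripts. These are IFI44, IFIT5, IFITM1, IFITM2, IFITM3, RIGI, ISG15, IRF7, TRIM22, GBP1, PARP9, EIF2AK2 and SP110. Mouse symbols existed for 39 of the genes and mouse probe sets for 37, of 18193 genes on the mouse arrays. The members were grouped by role into the IFIT family, the oligoadenylate synthetases, RNA sensors, transcription factors, the ISG15 pathway with ubiquitin ligases, membrane proteins, MX and GBP GTPases, chemokines and other effectors.

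The study compared DMSO, EPZ004777 (an inhibitor of DOT1L, the methyltransferase of histone H3 lysine 79), MI-2-2 (an inhibitor of the binding between menin and the KMT2A, or MLL, protein) and the combination of both, on Affymetrix expression arrays. RS4;11 and SEM are human B cell precursor leukaemia lines with a KMT2A-AFF1 fusion, REH is a B cell precursor line without a KMT2A fusion, and MOLM-13, from acute myeloid leukaemia, carries the KMT2A-MLLT3 (MLL-AF9) fusion. The fifth model was a primary culture of mouse haematopoietic cells transformed with MLL-AF9 and grown with added cytokines (human IL-6, murine IL-3 and stem cell factor). RS4;11, SEM and REH received 3 µM EPZ004777, 10 µM MI-2-2, or both, for 6 days. Treatment of MOLM-13 and of the mouse cells used 3 µM EPZ004777, 3 µM MI-2-2, or both, for 4 days, and the combination was taken to hold each compound at its own single dose. Each group had 3 arrays, except RS4;11 with DMSO and SEM with DMSO, MI-2-2 or the combination, which had 2. Each human model is 1 cell line, the mouse model is 1 culture as far as the labels go, and no group was given interferon as far as they say. The replicates are called biological in the design text, with no more said of their origin, so p-values measure the spread between these arrays, which may be partly technical.

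Type I and type III interferons act through receptors coupled to the kinases JAK1 and TYK2, which activate STAT proteins. STAT2 joins IRF9 in a complex that binds the interferon-stimulated response element (ISRE), a short motif in the promoters of many of these genes, while type II interferon acts through the GAS motif. The products block viral entry (IFITM proteins), bind foreign RNA (IFIT and OAS families, RIG-I-like sensors), edit the cell surface or attract T cells (CXCL10, CXCL11), and some, such as USP18, damp the pathway itself.

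A promoter entry in RefSeq (GRCh38.p14) was matched for 34 of the 44 genes, and the 250 bases before each start were searched for the ISRE core GAAANNGAAA on either strand, which reads TTTCNNTTTC on the opposite strand. It was found for 22 of the 34 members (64.7%), against 3.71% of 27305 genes with a promoter of the same length. The GAS motif TTCNNNGAA, which reads the same on both strands, was found for 10 members (29.4%), against 8.09% of all genes. The motifs overlapped in 5 member windows. The sequences printed here show the matches in capitals with 20 bases on each side, on the strand of the gene, for 6 members with large changes in MOLM-13 (IFIT1, ISG15, CXCL10, IFI44L, EPSTI1 and HERC5), for BST2 and SAMD9, which hold the motif and passed no test in MOLM-13, and for GBP1 and IFITM1, which rose in SEM. A match describes the letters in this window and is not evidence of binding.
IFIT1, plus strand, chr10:89392487-89392549: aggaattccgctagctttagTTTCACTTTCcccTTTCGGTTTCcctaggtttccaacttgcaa
ISG15, plus strand, chr1:1013364-1013419: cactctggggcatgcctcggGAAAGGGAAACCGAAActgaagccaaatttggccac
CXCL10, minus strand, chr4:76023689-76023738: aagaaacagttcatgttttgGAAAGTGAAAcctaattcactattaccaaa
IFI44L, plus strand, chr1:78620264-78620404: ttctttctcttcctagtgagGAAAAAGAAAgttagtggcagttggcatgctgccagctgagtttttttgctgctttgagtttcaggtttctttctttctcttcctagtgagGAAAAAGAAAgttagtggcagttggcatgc
EPSTI1, minus strand, chr13:42992262-42992311: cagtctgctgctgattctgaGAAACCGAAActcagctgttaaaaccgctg
HERC5, plus strand, chr4:88456974-88457074: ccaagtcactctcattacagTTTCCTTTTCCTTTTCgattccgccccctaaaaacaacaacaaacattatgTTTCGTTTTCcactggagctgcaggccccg
BST2, minus strand, chr19:17405725-17405780: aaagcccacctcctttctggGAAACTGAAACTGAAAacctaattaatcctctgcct
SAMD9, minus strand, chr7:93118086-93118135: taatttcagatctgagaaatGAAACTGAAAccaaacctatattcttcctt
GBP1, minus strand, chr1:89065306-89065355: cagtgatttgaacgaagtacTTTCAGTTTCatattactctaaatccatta
IFITM1, plus strand, chr11:313980-314029: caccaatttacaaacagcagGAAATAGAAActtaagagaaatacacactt

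The printed windows differ in how often the core is repeated. HERC5 held 3 matches, IFIT1, ISG15, IFI44L and BST2 held 2, and the other 5 members held 1. In ISG15, BST2 and HERC5 neighbouring matches share letters, whereas in IFIT1 they are separate. Several members also neighbour each other in the genome on GRCh38.p14. IFIT1, IFIT2, IFIT3 and IFIT5 lie on chromosome 10, OAS1, OAS2 and OAS3 on chromosome 12, CXCL10 and CXCL11 on chromosome 4, MX1 and MX2 on chromosome 21, and IFI44 and IFI44L on chromosome 1.

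The deposited values are log2 signals after robust multi-array averaging, so a difference of 1 is a 2-fold difference. MOLM-13 arrays were on another scale (array medians of 6.18 to 6.25) than those of the other human lines (5.54 to 5.66), so log2 levels of MOLM-13 were not set against those of the other lines except in 1 test of DMSO arrays, given with that limit, and percentiles within arrays are a description. Treatments were compared with limma within each model, and lines in fits that hold several models, on genes whose signal passed percentile 40 of its array on 2 or more arrays, and calls were made where the p adjusted by Benjamini-Hochberg over all genes tested was under 0.05. B cell precursor markers were above that percentile in DMSO for 8 of 8 genes in RS4;11 and REH and for 3 of 8 in MOLM-13. In bulk RNA, fewer cells of a type and less RNA per cell cannot be told apart.

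With DMSO alone the members' probe sets already gave signal in every model. The median member stood at percentile 78.9 of its array in MOLM-13, 71.1 in SEM, 76.6 in RS4;11, 79.2 in REH and 62.1 in the mouse cells. Below percentile 40 were 1 member in MOLM-13 (GBP1), 7 in SEM, 6 in RS4;11, 7 in REH and 8 in the mouse cells. Percentiles place each probe set among all probe sets of its own array. Because probe sets differ in how well they bind, percentiles give no order of abundance between genes. Each gene was read from its probe set with the highest mean, so a member's percentile does not rank it against other genes read likewise. The same probe set can be followed across lines. OASL, an oligoadenylate synthetase-like protein, stood at percentile 80.7 in MOLM-13 and between 25.0 and 32.3 in the 3 lymphoid lines. For CXCL10, a chemokine that attracts T cells, the percentile was 68.1 in MOLM-13 and between 1.47 and 2.73 in the lymphoid lines. GBP1, an interferon-induced GTPase, stood the other way, at 31.0 in MOLM-13 and between 63.5 and 67.9 in the lymphoid lines. IFITM2, a restriction factor of viral entry, was at or above 94.5 in all 5 models.

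**Figure D1:**
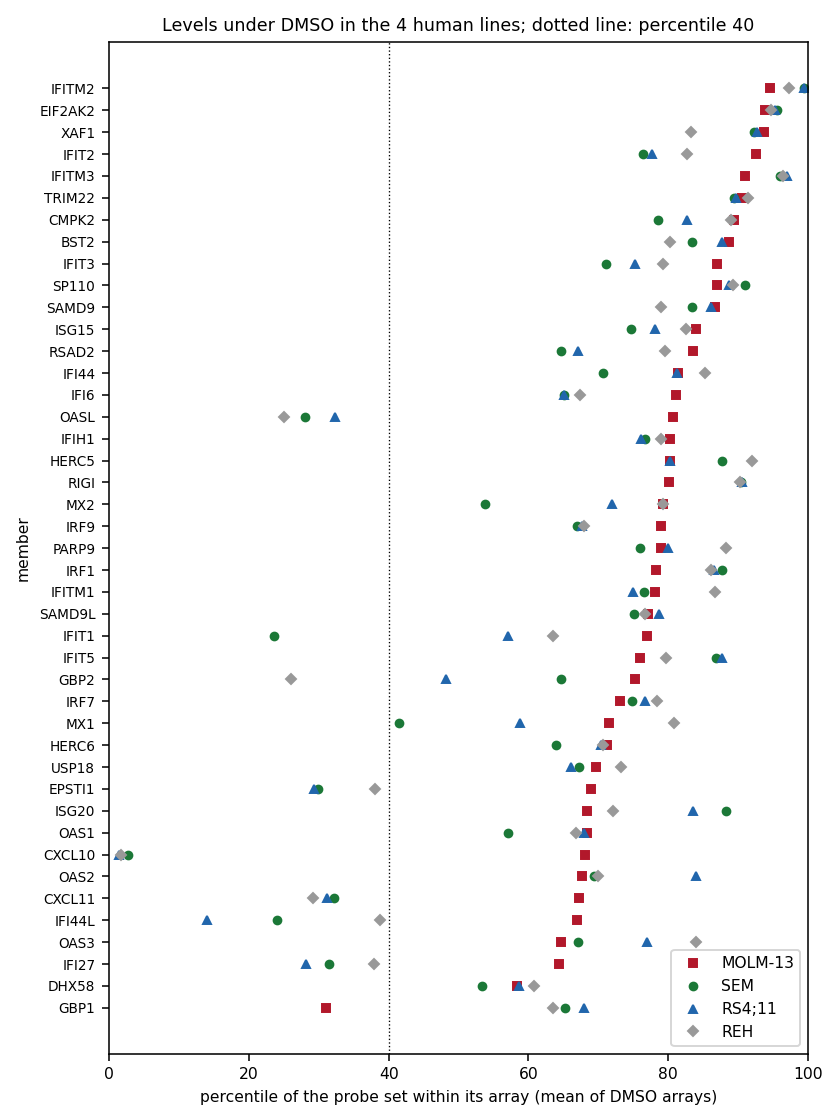
Percentile of each member's probe set among all probe sets of the same DMSO arrays (0 to 100) in the 4 human lines. Points are means over the DMSO arrays and the dotted line marks percentile 40. Members such as OASL, CXCL10 and IFI27 stand above the line in MOLM-13 and below it in RS4;11, SEM and REH, and GBP1 stands below it in MOLM-13 alone.

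Among the 3 lymphoid lines, which share a scale, DMSO levels differed for many members. Of 37 members tested, 10 were higher and 3 lower in RS4;11 than in SEM (11.3% and 8.41% of 14261 genes), 9 higher and 14 lower in RS4;11 than in REH (18% and 22.3%), and 6 higher and 17 lower in SEM than in REH (16.7% and 25.5%). The F test over the 3 lines called 25 of the 37 members, against 49% of all genes. With MOLM-13 included, the F test called 41 of 43 members, against 92.4% of all genes, a comparison that also holds the difference in scale. The widest range was that of MX1, a GTPase that blocks influenza and other viruses, with mean log2 signals of 9.12 in REH, 6.38 in RS4;11 and 4.99 in SEM. IFIT1, which binds RNA with a foreign cap, followed in the same order at 7.03, 6.20 and 3.94, as did MX2, a related GTPase active against retroviruses, at 8.92, 7.94 and 5.90, and OAS3 at 9.53, 8.57 and 7.36. GBP2, a guanylate-binding GTPase, had the opposite order, at 4.04 in REH, 5.45 in RS4;11 and 7.08 in SEM. All pairwise differences of these 5 members between the lines passed the test.

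In MOLM-13 most members fell with each treatment. Of 42 members tested, 34 fell with EPZ004777 and 0 rose, against 12.5% of all genes falling and 15.3% rising, and 2 members were higher at an unadjusted p under 0.05. With MI-2-2, 34 fell and 2 rose (8.36% and 10.2% of all genes), and with the combination 34 fell and 4 rose (25.8% and 23.7%). The median log2 change over the members was -1.18, -1.36 and -0.99, against medians of 0.03, 0.02 and 0.00 over all genes tested. Altogether 32 members fell with all 3 treatments. IFI44L, OAS2, EPSTI1 and CXCL10 were above the filter percentile on the DMSO arrays alone and so had to be lower elsewhere. IFIT1 was above that percentile with DMSO and EPZ004777 alone and so had to be lower in the other groups. Over the 37 members above the percentile on some arrays of all 4 groups, 29 fell with each treatment and the medians were -0.98, -1.24 and -0.76. Of these, IFI27, IFI44 and OAS3 were above it on 10 of 12 arrays and IFIT5 and USP18 on 11, so some of their arrays lay below it. With no filter, 33, 33 and 34 of 43 members fell. The 3 treatments share the DMSO arrays, so their calls are not independent of each other.

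The DMSO arrays of MOLM-13 themselves differed in these genes. The mean log2 signal over the 42 members was 9.21, 9.89 and 9.57 on DMSO replicates 1 to 3, against 8.11 to 8.29 with EPZ004777, 7.75 to 7.88 with MI-2-2 and 7.97 to 8.07 with the combination. Replicate 2 was the highest of the 3 for 37 of the 42 members and replicate 1 the lowest for 37, compared with 23.4% and 24.4% of 14060 genes. The lowest DMSO array was above all treated arrays in this mean. The mean includes IFI44L, OAS2, EPSTI1, CXCL10 and IFIT1, so part of its gap between DMSO and treatment was fixed by the filter. Leaving out each array in turn gave 33 to 35 members called with EPZ004777, 33 to 37 with MI-2-2 and 34 to 38 with the combination, where 27.8%, 18.6% and 49.5% of all genes were called in either direction over all arrays.

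The IFIT genes, whose products bind viral RNA and hinder its translation, all fell with all 3 treatments (4 of 4). IFIT1 had log2 signals of 8.68, 9.97 and 9.27 on the DMSO arrays, 6.15, 5.74 and 6.33 with EPZ004777, 4.45, 4.79 and 5.11 with MI-2-2, and 4.65, 4.92 and 4.58 with the combination. Every treated array lay below every DMSO array, and the MI-2-2 and combination arrays lay below those with EPZ004777. IFIT1 was above the filter percentile with DMSO and EPZ004777 alone, so its direction with MI-2-2 and the combination was fixed by the filter. Its log2 change was -3.23 (SE 0.29, adjusted p = 1.7e-05) with EPZ004777, -4.53 (SE 0.29, adjusted p = 2.82e-06) with MI-2-2 and -4.59 (SE 0.29, adjusted p = 3.33e-07) with the combination. For IFIT2, at 11.30, 12.11 and 11.64 with DMSO, the changes were -2.31, -3.17 and -2.91. IFIT3 changed by -2.02, -2.92 and -2.29, and IFIT5 by -2.21, -3.37 and -2.54, on a probe set that may bind other transcripts.

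All 4 oligoadenylate synthetase genes, whose products make the signal that activates the RNA-degrading enzyme RNase L or, for OASL, act on RNA sensing, fell with each treatment. OAS2 read 7.37, 8.53 and 8.18 with DMSO, 4.25, 4.46 and 4.72 with EPZ004777, 3.93, 3.74 and 4.50 with MI-2-2, and 4.02, 3.84 and 4.05 with the combination. These arrays did not overlap with DMSO, and the changes were -3.55 (SE 0.27, adjusted p = 5.77e-06), -3.97 (SE 0.27, adjusted p = 4.44e-06) and -4.06 (SE 0.27, adjusted p = 5.3e-07). OAS2 was above the filter percentile with DMSO alone, so its fall was fixed by the filter, whereas OAS1, OAS3 and OASL were above it in all 4 groups. OAS3 was above it on 10 of 12 arrays. OASL, at 9.36, 10.29 and 9.81 with DMSO, changed by -2.54, -2.89 and -2.90. The other members of the family changed less, OAS3 by -1.66, -2.31 and -1.58 and OAS1 by -0.98, -2.06 and -0.70.

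Among the ISG15 pathway and ubiquitin ligase genes, 4 of 5 fell with each treatment. ISG15, the ubiquitin-like modifier, had log2 signals of 9.59, 10.97 and 10.36 with DMSO, 8.69, 8.43 and 8.59 with EPZ004777, 8.58, 8.67 and 8.51 with MI-2-2, and 8.24, 8.34 and 8.07 with the combination. Its changes of -1.74, -1.72 and -2.09 (SE 0.26 each; adjusted p = 6.41e-04, 1.08e-03 and 5.61e-05) were close to each other, and the treated arrays lay between 8.07 and 8.69. HERC5, the ligase that attaches ISG15, read 9.39, 10.22 and 9.63 with DMSO, 7.71, 7.36 and 8.02 with EPZ004777, 6.37, 5.83 and 6.15 with MI-2-2, and 6.20, 6.71 and 6.58 with the combination. Every treated array lay below every DMSO array, and the log2 changes were -2.05 (SE 0.24, adjusted p = 0.000113), -3.63 (SE 0.24, adjusted p = 3.17e-06) and -3.25 (SE 0.24, adjusted p = 9.69e-07). USP18, which removes ISG15 and damps receptor signalling, read 7.88, 8.70 and 8.34 with DMSO and 6.03, 5.97 and 5.50 with the combination. The changes, in the same order of treatments, were -1.15, -1.40 and -2.47. HERC6 changed by -0.64, -0.98 and -0.83. TRIM22, an antiviral ubiquitin ligase, read 11.36, 11.35 and 11.27 with DMSO, 11.53, 11.51 and 11.57 with MI-2-2, and 11.54, 11.45 and 11.51 with the combination. It rose by 0.21 (SE 0.05, adjusted p = 0.0175) with MI-2-2 and by 0.17 (SE 0.05, adjusted p = 0.0174) with the combination, calls that were lost without DMSO replicate 3, without MI-2-2 replicate 3 or without combination replicate 1 or 3 (highest adjusted p 0.0663 and 0.0653).

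Both chemokine genes fell with all 3 treatments. CXCL10 was above the filter percentile with DMSO alone, so its fall was fixed by the filter, and CXCL11 was above it in all 4 groups. CXCL10 read 7.52, 8.77 and 7.99 with DMSO, 4.72, 4.11 and 4.48 with EPZ004777, 4.73, 4.68 and 4.95 with MI-2-2, and 4.46, 3.90 and 3.28 with the combination. Its changes were -3.66 (SE 0.33, adjusted p = 1.91e-05), -3.31 (SE 0.33, adjusted p = 6.98e-05) and -4.21 (SE 0.33, adjusted p = 1.84e-06). CXCL11, at 7.36, 8.18 and 8.40 with DMSO and 5.65, 6.20 and 5.51 with the combination, changed by -1.53, -1.24 and -2.19.

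Of the 13 other effectors, 12 fell with EPZ004777 and with the combination, and 11 with MI-2-2. IFI44L, a cytoplasmic protein whose transcript is a widely used marker of interferon response, gave the largest log2 change of any member with every treatment. It read 7.46, 8.34 and 8.01 with DMSO, 3.58, 3.65 and 3.57 with EPZ004777, 3.33, 3.45 and 3.09 with MI-2-2, and 3.35, 3.22 and 3.44 with the combination. Treated arrays lay within 3.09 to 3.65, below the filter percentile, so the direction was fixed by the filter. The changes were -4.34 (SE 0.18, adjusted p = 6.56e-08), -4.64 (SE 0.18, adjusted p = 8.38e-08) and -4.60 (SE 0.18, adjusted p = 9.31e-09). Its neighbour IFI44 read 9.46, 10.37 and 9.93 with DMSO, 6.67, 6.78 and 7.34 with EPZ004777, 5.86, 5.38 and 5.82 with MI-2-2, and 5.34, 6.14 and 5.79 with the combination. IFI44 stayed lower on all treated arrays, with changes of -2.99 (SE 0.27, adjusted p = 1.91e-05), -4.24 (SE 0.27, adjusted p = 2.83e-06) and -4.16 (SE 0.27, adjusted p = 4.28e-07).

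EPSTI1, a gene named for induction by epithelial-stromal contact, read 7.64, 8.67 and 8.31 with DMSO, 4.88, 5.12 and 5.27 with EPZ004777, 4.48, 4.61 and 4.94 with MI-2-2, and 4.04, 4.77 and 4.20 with the combination. With every treated array below every DMSO array, it changed by -3.12 (SE 0.26, adjusted p = 9.35e-06), -3.53 (SE 0.26, adjusted p = 6.72e-06) and -3.87 (SE 0.26, adjusted p = 4.92e-07). EPSTI1 was above the filter percentile with DMSO alone, so its direction was fixed by the filter. RSAD2 (viperin), which makes a chain-terminating nucleotide, read 9.44, 11.04 and 10.24 with DMSO and 7.32, 7.45 and 7.50 with the combination. It changed by -2.31, -3.12 and -2.82 (SE 0.31 each). CMPK2, its neighbour on chromosome 2, changed by -0.66, -1.11 and -0.68. Further called falls of this group were those of IFI27 (-2.04, -1.95 and -1.98), IFI6 (-1.22, -2.29 and -1.01), ISG20 (-1.25, -1.49 and -1.35), PARP9 (-1.08, -1.32 and -0.69), SAMD9L (-0.90, -0.89 and -0.59) and SP110 (-0.36, -0.55 and -0.30). XAF1 fell with EPZ004777 (-0.63) and the combination (-0.48) but read 0.05 with MI-2-2, which was not called. SAMD9 read 10.49 to 10.92 with DMSO and 10.46 to 10.81 on the treated arrays, and none of its changes (-0.17, -0.18 and 0.00) passed the test.

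Among the transcription factors, IRF9, the DNA-binding subunit of the interferon-activated complex, read 9.70, 9.64 and 9.40 with DMSO, 8.29, 8.22 and 8.50 with EPZ004777, 7.98, 8.28 and 8.49 with MI-2-2, and 8.55, 8.56 and 8.71 with the combination. It fell without overlap, with changes of -1.24 (SE 0.13, adjusted p = 5.01e-05), -1.33 (SE 0.13, adjusted p = 4.97e-05) and -0.97 (SE 0.13, adjusted p = 8.19e-05). IRF7, which drives interferon gene transcription, changed by -0.80, -0.72 and -0.76. IRF1 changed by -0.25 with EPZ004777, with arrays overlapping those of DMSO, by -0.46 with MI-2-2 and by 0.12, not called, with the combination. Of 4 RNA sensors, 3 fell with each treatment by smaller amounts. RIGI changed by -0.49, -0.66 and -0.26, IFIH1 (MDA5) by -0.53, -0.58 and -0.35 and EIF2AK2, the kinase PKR, by -0.52, -0.63 and -0.56. DHX58 (LGP2), at -0.31, -0.29 and -0.07, was not called.

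Genes of membrane proteins and GTPases behaved less uniformly. The probe sets of IFITM1, IFITM2 and IFITM3 may bind other transcripts, so their signals may not be of a single gene. IFITM1, a cell-surface restriction factor, read 9.10, 9.81 and 9.43 with DMSO, 7.53, 7.66 and 7.87 with EPZ004777, 6.50, 6.54 and 6.48 with MI-2-2, and 6.21, 6.42 and 6.05 with the combination. It fell with all 3 treatments, with changes of -1.77 (SE 0.16, adjusted p = 1.87e-05), -2.94 (SE 0.16, adjusted p = 9.23e-07) and -3.22 (SE 0.16, adjusted p = 5.37e-08). IFITM3 changed by -0.75 with MI-2-2 and -0.35 with the combination, and by -0.24, not called, with EPZ004777. IFITM2 read 11.95, 12.15 and 12.04 with DMSO and 12.20, 12.33 and 12.20 with the combination, a rise of 0.19 (SE 0.07, adjusted p = 0.0333) that was not called without DMSO replicate 1 or 3 or combination replicate 2 (highest adjusted p 0.126). BST2 (tetherin), which holds budding virus at the cell surface, lay between 10.79 and 11.25 on all arrays, and its changes of 0.03, -0.15 and 0.17 were not called.

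MX1 fell with all 3 treatments (-1.84, -2.73 and -1.47), and MX2 did not. MX2 read 9.22, 9.99 and 9.60 with DMSO, 9.45, 9.42 and 9.56 with EPZ004777, 9.34, 9.21 and 9.06 with MI-2-2, and 10.18, 10.15 and 10.07 with the combination. Only the combination arrays lay above all DMSO arrays, a rise of 0.53 (SE 0.15, adjusted p = 0.013). GBP2 read 9.09, 9.14 and 8.99 with DMSO, 9.58, 9.38 and 9.55 with EPZ004777, 9.64, 9.90 and 10.48 with MI-2-2, and 10.20, 10.11 and 10.18 with the combination. It rose by 0.94 (SE 0.16, adjusted p = 0.00274) with MI-2-2 and by 1.09 (SE 0.16, adjusted p = 0.000222) with the combination, and its change of 0.43 with EPZ004777 (adjusted p = 0.0743) was not called. GBP1 was below the filter and was not tested.

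**Figure D2:**
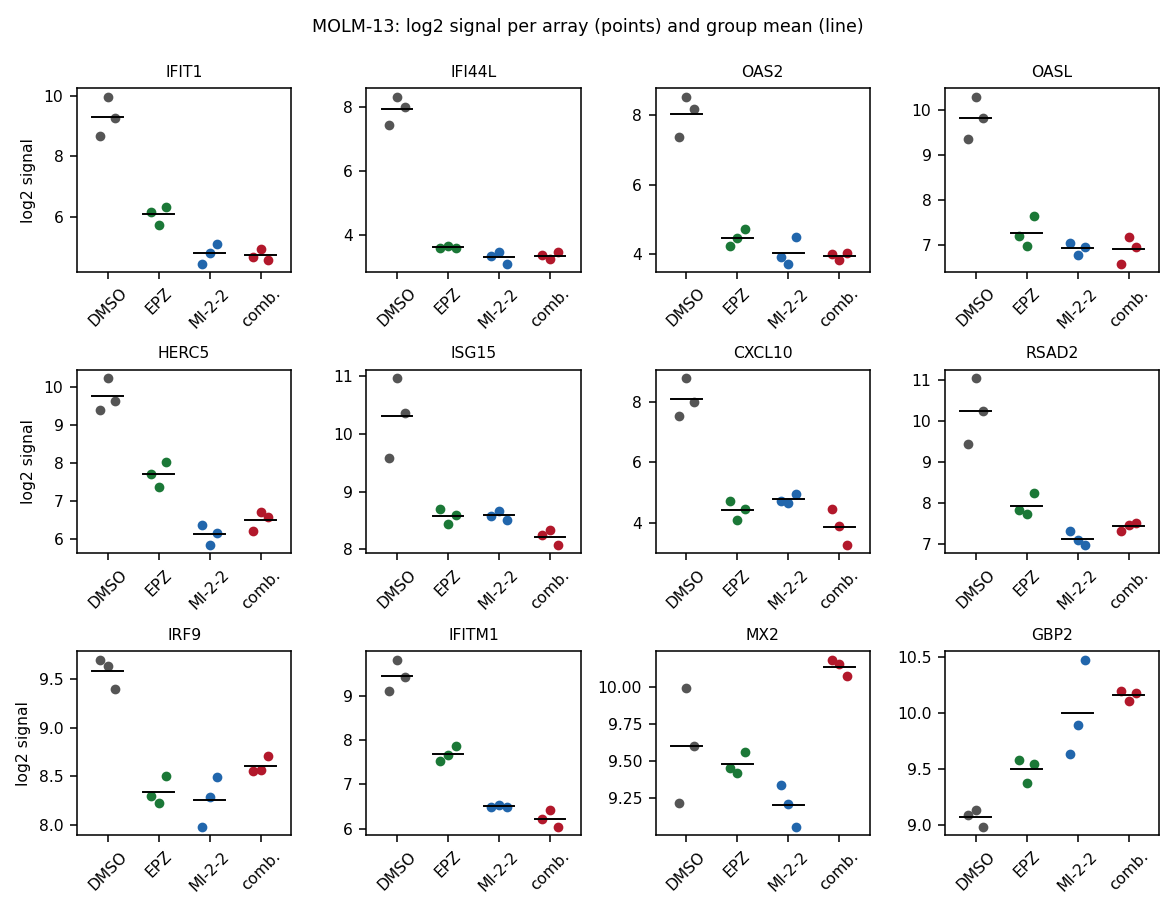
Log2 signal of 12 members on every MOLM-13 array, by treatment (EPZ is EPZ004777, comb. is the combination); points are arrays and lines are group means. IFIT1, IFI44L, OAS2, OASL, HERC5, ISG15, CXCL10, RSAD2, IRF9 and IFITM1 lie lower on every treated array than on every DMSO array, whereas MX2 and GBP2 lie higher with the combination.

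Members with and without an ISRE match were both mostly lower in MOLM-13. With the motif, 18 of 21 tested fell with EPZ004777, and 19 with MI-2-2 and with the combination, with median log2 changes of -1.84, -2.73 and -2.09. Without it, 11, 10 and 10 of 11 fell, with medians of -0.64, -0.89 and -0.59. Among those with the motif, IFI44L, EPSTI1 and CXCL10 were above the filter with DMSO alone and IFIT1 with DMSO and EPZ004777, so their direction was fixed where they were below it. Over the 17 with the motif that were above it in all 4 groups, 14, 15 and 15 fell and the medians were -1.74, -2.29 and -1.58. BST2, with 2 overlapping matches, and SAMD9, with 1, are the members printed above that hold the motif and were not called. No test was made between members with and without a match.

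The combination was also set against each single compound in MOLM-13. Against EPZ004777, 4 members were higher and 7 lower of 42 (14.4% and 18.9% of all genes). The largest differences were those of IFITM1 (-1.46), IFIT1 (-1.36) and USP18 (-1.32) and, upward, GBP2 (0.66), MX2 (0.66) and IRF1 (0.36). IFIT1, among the 7 lower, was above the filter with EPZ004777 and below it with the combination, so its direction was fixed. Against MI-2-2, 15 were higher and 3 lower (17.9% and 21.7%). OAS1 (1.36), IFI6 (1.28) and MX1 (1.26) were higher, and USP18 (-1.07), CXCL11 (-0.95) and XAF1 (-0.53) were lower. The call for CXCL11 was lost without combination replicate 1 or 3, MI-2-2 replicate 1 or 3 or EPZ004777 replicate 2 (highest adjusted p 0.142).

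Genes of the same pathway outside the list were also examined in MOLM-13. Of 9 receptor and kinase genes, 2, 3 and 9 rose with EPZ004777, MI-2-2 and the combination and 0, 1 and 0 fell. No interferon gene of the 7 examined passed the filter. IFNB1, the interferon beta gene, read 4.56, 5.27 and 4.54 with DMSO, 3.43, 3.48 and 3.34 with EPZ004777, 2.86, 3.69 and 3.12 with MI-2-2, and 2.83, 2.68 and 2.76 with the combination. These signals are low for the array, and in the fit without a filter its changes were -1.37 (SE 0.22, adjusted p = 0.00132), -1.57 (SE 0.22, adjusted p = 8.76e-04) and -2.03 (SE 0.22, adjusted p = 2.55e-05). The mean over the 7 interferon genes was 3.76 to 3.87 with DMSO, 3.68 to 3.70 with EPZ004777, 3.57 to 3.75 with MI-2-2 and 3.50 to 3.79 with the combination. Of 7 genes tested as brakes on the pathway, 1, 0 and 2 rose and 1, 2 and 1 fell, with median changes of 0.04, -0.01 and 0.06. Among them SOCS1, a feedback inhibitor of JAK kinases, changed by -1.61, -1.24 and -1.94. Of 14 nucleic acid sensor and adaptor genes, 4, 2 and 6 rose and 3, 4 and 2 fell, with IFI16 at -0.80, -1.99 and -1.42 and TLR8 at 2.34, 0.82 and 3.36. Monocyte and macrophage markers rose on the same arrays, 10, 7 and 11 of 11 with EPZ004777, MI-2-2 and the combination, while 0, 2 and 0 fell. Their mean log2 signal was 9.15 to 9.25 with DMSO, 10.18 to 10.34 with EPZ004777, 9.59 to 9.77 with MI-2-2 and 11.22 to 11.31 with the combination, and its part in the members' changes was not tested. Myeloid progenitor markers also rose, 5, 4 and 5 of 6 tested, and 0 fell. T and NK cell markers rose for 3, 0 and 3 of 4, and 1 fell with each treatment. Stromal and epithelial markers rose for 2, 1 and 2 of 3 and B cell precursor markers for 0 of 3, with 0 of either falling.

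In SEM the 2 compounds went different ways. With EPZ004777, 9 of 37 members fell and 2 rose (4.12% and 4.55% of all genes), with a median log2 change of -0.16 against -0.05 over all genes. With MI-2-2, 13 rose and 1 fell (9.32% and 8.47%), with a median of 0.25 against 0.01. With the combination 11 rose and 4 fell (14.3% and 15.2%), with a median of 0.09 against -0.02. IFI27, IFI44L, IFIT1, OASL, CXCL10 and CXCL11 were below the filter. Over all arrays, 8.66%, 17.8% and 29.6% of all genes were called in either direction. Leaving out arrays moved the members' counts. For EPZ004777, 2 members were called without DMSO replicate 2 or without DMSO replicate 3, and 7 without EPZ004777 replicate 2 or replicate 3. For MI-2-2, 8 were called without MI-2-2 replicate 1, MI-2-2 replicate 3 or DMSO replicate 3.

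With EPZ004777 in SEM, 2 of 3 IFIT genes, 2 of 3 oligoadenylate synthetases, 2 of 3 transcription factors, 1 of 4 RNA sensors, 1 of 5 ISG15 pathway genes and 1 of 11 other effectors fell. IFIT2 read 8.62 and 8.43 with DMSO, 7.54, 7.52 and 7.63 with EPZ004777, 8.44 and 8.47 with MI-2-2, and 7.24 and 7.33 with the combination. Arrays with EPZ004777, alone or combined, lay below the others, with changes of -0.96 (SE 0.08, adjusted p = 0.000518) and -1.24 (SE 0.09, adjusted p = 3.39e-05), and MI-2-2 alone read -0.06. USP18 read 7.31 and 7.44 with DMSO, 6.42, 5.78 and 6.29 with EPZ004777, 7.65 and 7.97 with MI-2-2, and 7.63 and 7.86 with the combination. It fell with EPZ004777 alone (-1.21, SE 0.19, adjusted p = 0.00961). OAS1 read 6.17 and 6.27 with DMSO, 5.46, 5.70 and 5.06 with EPZ004777, 7.0 and 7.07 with MI-2-2, and 6.68 and 6.77 with the combination, changes of -0.82 with EPZ004777 and 0.82 with MI-2-2, both called. OAS3 went the same ways (-0.68 and 0.43). IFIT3 (-0.71), DHX58 (-0.67), IRF9 (-0.67), SAMD9L (-0.51) and IRF1 (-0.45) were the other falls with EPZ004777. Without DMSO replicate 2 or without DMSO replicate 3 the EPZ004777 calls were lost for USP18 (highest adjusted p 0.0829), OAS1 (0.134) and IFIT3 (0.197), and without DMSO replicate 2 for OAS3 (0.0679). IFIT3 also lost its call without EPZ004777 replicate 2 or 3.

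The rises in SEM with MI-2-2 and the combination were led by GTPase genes. GBP1 read 7.16 and 7.13 with DMSO, 7.20, 7.43 and 6.91 with EPZ004777, 8.38 and 8.68 with MI-2-2, and 8.97 and 8.87 with the combination. It rose by 1.39 (SE 0.16, adjusted p = 0.0011) with MI-2-2 and by 1.77 (SE 0.16, adjusted p = 0.000148) with the combination, on a probe set that may bind other transcripts. GBP2 read 6.99 and 7.18 with DMSO, 7.49, 7.07 and 7.26 with EPZ004777, 8.41 and 8.62 with MI-2-2, and 8.23 and 8.15 with the combination, rises of 1.43 (SE 0.14, adjusted p = 0.000544) and 1.11 (SE 0.14, adjusted p = 0.000875). MX2, at 5.88 and 5.93 with DMSO, 6.66 and 6.97 with MI-2-2 and 7.27 and 7.34 with the combination, rose by 0.91 and 1.40.

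EPSTI1 read 4.32 and 4.25 with DMSO, 4.93, 5.09 and 4.92 with EPZ004777, 5.34 and 5.01 with MI-2-2, and 5.97 and 5.73 with the combination. It was above the filter in the treated groups only, so it had to be higher there, by 0.70 (SE 0.12, adjusted p = 0.0119), 0.89 (SE 0.13, adjusted p = 0.00277) and 1.56 (SE 0.13, adjusted p = 7.9e-05). IFITM1, at 8.64 and 8.42 with DMSO, read 9.22, 9.15 and 9.29 with EPZ004777, 9.56 and 9.58 with MI-2-2, and 8.61 and 8.85 with the combination. It rose with each compound alone (0.69 and 1.04), and the combination arrays were near DMSO (0.20, not called). PARP9, an ADP-ribosyltransferase family member, read 8.38 and 8.55 with DMSO, 8.90 and 9.19 with MI-2-2 and 9.36 and 9.43 with the combination, rises of 0.58 and 0.93. Further rises with MI-2-2 and the combination were those of IFI6 (0.78 and 0.83), OAS2 (0.77 and 0.48), BST2 (0.56 and 0.51) and CMPK2 (0.48 and 0.82), with IFI44 (0.39) for MI-2-2 and MX1 (0.73) and SAMD9 (0.32) for the combination. XAF1 fell with both (-0.31 and -0.69), and ISG20 (-0.37) and HERC5 (-0.31) fell with the combination. Calls were lost for EPSTI1 with EPZ004777 without either DMSO array (highest adjusted p 0.0941), for IFITM1 with EPZ004777 without DMSO replicate 3 (0.0597), and for XAF1 with MI-2-2 without either MI-2-2 array or DMSO replicate 3 (0.165). They were also lost for ISG20 without combination replicate 1 or DMSO replicate 2 (0.0768) and for HERC5 without any of the DMSO or combination arrays (0.067). SEM members with an ISRE match had a median log2 change of 0.40 with MI-2-2 (8 of 18 rose). Those without one had 0.04 (2 of 10 rose), where 9.32% of all genes rose. With the combination the medians were 0.22 (7 rose, 2 fell) and -0.07 (1 rose, 1 fell), against 14.3% and 15.2% of all genes. In RS4;11 with the combination they were 0.17 (6 of 19 rose, 1 fell) and 0.11 (3 of 10 rose, 0 fell), against 11.2% and 12.4%. EPSTI1, which holds the motif, had its direction set by the filter in these comparisons, and no test was made between the groups.

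An RNA quality measure moved with the groups in SEM. The log2 difference between the 3' and 5' actin control probe sets lay between 2.319 and 2.48 on arrays of DMSO and EPZ004777, and between 1.826 and 1.928 on those of MI-2-2 and the combination. With this difference as a covariate, an alternative chosen after seeing the data, limma called 3 members with EPZ004777, 0 with MI-2-2 (6 higher and 0 lower at an unadjusted p under 0.05) and 0 with the combination (6 higher and 1 lower). The groups do not overlap in it, so it and the treatment cannot be told apart here. Monocyte and macrophage markers rose on the same arrays (5, 6 and 8 of 9 tested), with mean log2 signals of 4.72 to 4.77 with DMSO, 5.43 to 5.59 with EPZ004777, 6.33 to 6.34 with MI-2-2 and 7.21 to 7.34 with the combination, and their part in the changes was not tested. B cell precursor markers rose for 2, 4 and 3 of 8 tested and fell for 0, 1 and 2. Stromal and epithelial markers rose for 3, 2 and 2 of 4 and fell for 0, 1 and 1. Myeloid progenitor markers rose for 0, 1 and 2 of 3 and T and NK cell markers for 1, 1 and 1 of 2, with 0 of either falling.

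Set against EPZ004777 alone in SEM, the combination had 21 members higher and 4 lower (15.4% and 11.5% of all genes), led by GBP1 (1.74), USP18 (1.58) and OAS1 (1.32), with XAF1 (-0.62), IFITM1 (-0.49) and IFIT2 (-0.28) lower. The count called was 15 without combination replicate 1 and 14 without combination replicate 3. Set against MI-2-2 alone, 1 was higher, EPSTI1 (0.67), and 4 were lower (2.79% and 1.93%), among them IFIT2 (-1.18), IFITM1 (-0.84) and OAS3 (-0.59). That count was 2 without combination replicate 1 or MI-2-2 replicate 3 and 3 without MI-2-2 replicate 1. Without combination replicate 1 the calls of all of EPSTI1, OAS3 and, against EPZ004777, IFITM1 and IFIT2 were lost (highest adjusted p over all arrays left out 0.152, 0.127, 0.0601 and 0.161). EPSTI1 also lost its call without MI-2-2 replicate 3, OAS3 without either MI-2-2 array or combination replicate 3, and IFIT2 without combination replicate 3 or EPZ004777 replicate 3. Outside the list, of 9 receptor and kinase genes 1, 4 and 6 rose with EPZ004777, MI-2-2 and the combination and 1, 0 and 0 fell, with IFNLR1, the interferon lambda receptor chain, at 1.72 with MI-2-2 and 2.33 with the combination. The adaptor STING1 (1.68 and 1.90) and TLR7 (1.71 and 1.89), a sensor of single-stranded RNA, rose as well.

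RS4;11, like SEM, carries KMT2A-AFF1. Of 38 members tested, 5 rose and 0 fell with EPZ004777 (4.51% and 2.08% of all genes), 5 rose and 3 fell with MI-2-2 (5.89% and 6.84%), and 11 rose and 1 fell with the combination (11.2% and 12.4%). In either direction, 6.59%, 12.7% and 23.7% of all genes were called. The medians were 0.00, 0.00 and 0.14, against -0.04, -0.03 and -0.04 over all genes. With EPZ004777, the count of 5 became 1 without DMSO replicate 2, 2 without DMSO replicate 3 or EPZ004777 replicate 3, and 3 without EPZ004777, MI-2-2 or combination replicate 2. With MI-2-2, the count of 8 became 5 and 4 without DMSO replicates 2 and 3.

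GBP2 gave the largest change of RS4;11. It read 5.51 and 5.38 with DMSO, 6.53, 6.49 and 6.49 with EPZ004777, 6.92, 7.04 and 6.89 with MI-2-2, and 8.78, 8.68 and 8.55 with the combination. The 4 groups were separate in that order, and the rises were 1.05 (SE 0.08, adjusted p = 3.08e-05), 1.50 (SE 0.08, adjusted p = 1.3e-06) and 3.22 (SE 0.08, adjusted p = 1.39e-09), the last a 9.34-fold rise. A second GBP2 probe set rose by 0.27, 0.54 and 1.46. PARP9 read 8.98 and 8.98 with DMSO, 9.20, 9.24 and 8.97 with EPZ004777, 9.46, 9.53 and 9.42 with MI-2-2, and 10.68, 10.57 and 10.61 with the combination. It rose by 0.49 (SE 0.08, adjusted p = 0.0036) with MI-2-2 and by 1.64 (SE 0.08, adjusted p = 2.17e-07) with the combination. Another PARP9 probe set, one that matches this gene alone, gave -0.11, -0.05 and 0.83, so the rise with MI-2-2 depended on the probe set.

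EPSTI1, above the filter with the combination alone in RS4;11, read 4.19 and 4.34 with DMSO, 4.79, 4.67 and 4.81 with EPZ004777, 4.48, 4.43 and 4.52 with MI-2-2, and 5.14, 5.22 and 5.46 with the combination, changes of 0.49 with EPZ004777 and 1.01 (SE 0.10, adjusted p = 2.65e-05) with the combination. The filter set the direction of the latter, and over the 37 members above it in all 4 groups 10 rose and 1 fell with the combination. MX2 read 8.0 and 7.87 with DMSO, 8.40, 8.40 and 8.29 with MI-2-2, and 8.78, 8.58 and 8.82 with the combination, rises of 0.43 and 0.79. HERC5 read 8.97 and 9.04 with DMSO, 9.34, 9.44 and 9.46 with EPZ004777, and 8.29, 8.40 and 8.56 with MI-2-2. It rose with EPZ004777 (0.41) and fell with MI-2-2 (-0.59, SE 0.10, adjusted p = 0.00392). RSAD2, at 7.44 and 7.20 with DMSO, read 6.67, 6.74 and 6.74 with MI-2-2, a change of -0.60 (SE 0.08, adjusted p = 0.000974). CMPK2 (0.40) and IFITM1 (0.34) rose with EPZ004777, OAS1 (0.50) and IFI6 (0.35) rose and RIGI (-0.30) fell with MI-2-2. With the combination CMPK2 (0.68), IRF9 (0.56), SAMD9 (0.48), IFI6 (0.47), OAS1 (0.36), MX1 (0.35) and GBP1 (0.34) rose and IFI44 (-0.31) fell. With EPZ004777 the call was lost for EPSTI1 without DMSO replicate 2 (adjusted p 0.105), for IFITM1 without either DMSO array or EPZ004777 replicate 3 (highest 0.179), and for HERC5 and CMPK2 in 7 and 9 of the 11 fits that leave out 1 array. With MI-2-2 it was lost for OAS1 without either DMSO array (highest 0.0946), for MX2 without DMSO replicate 3 (0.0878), and for IFI6 and RIGI in 8 and 7 of 11 fits. With the combination it was lost for IFI44 without either DMSO array or combination replicate 1 or 3 (highest 0.189).

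All 4 MX and GBP genes rose with the combination in RS4;11 and in SEM, while none of the 4 IFIT genes rose in RS4;11 or of the 3 tested in SEM. Over EPZ004777 alone, the RS4;11 combination had 12 members higher and 2 lower (10% and 9.56% of all genes, 19.6% in either direction), led by GBP2 (2.17), PARP9 (1.48) and MX2 (0.87), with HERC5 (-0.70) and IFI44 (-0.40) lower. Over MI-2-2 alone, 11 were higher and 0 lower (6.76% and 3.91%), with 1 lower at an unadjusted p under 0.05, and GBP2 (1.72), PARP9 (1.14) and EPSTI1 (0.80) led. EPSTI1 was above the filter with the combination alone, so it had to be higher there than with either compound. Of the pathway genes outside the list, SAMHD1 (0.88), SOCS1 (0.83) and IFNLR1 (0.68) had the largest rises with the combination. Monocyte and macrophage markers rose on these arrays too (3, 4 and 4 of 6 tested), with mean log2 signals of 4.98 to 5.12 with DMSO, 5.29 to 5.38 with EPZ004777, 5.56 to 5.66 with MI-2-2 and 6.0 to 6.02 with the combination, and their part in the members' changes was not tested. B cell precursor markers rose for 2, 1 and 5 of 8 tested and fell for 0, 1 and 1. With each treatment 1 of 3 myeloid progenitor markers and 1 of 3 stromal and epithelial markers rose, and 0 fell.

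REH is the line without a KMT2A fusion. Of 38 members tested there, 4 rose and 0 fell with EPZ004777 (2.82% and 1.13% of all genes), 0 rose and 1 fell with MI-2-2 (0.396% and 0.85%), and 9 rose and 3 fell with the combination (4.1% and 2.93%). With MI-2-2, limma gave 9 members higher and 6 lower at an unadjusted p under 0.05. In either direction, 3.95%, 1.25% and 7.03% of all genes were called. The medians were 0.08, 0.05 and 0.11, against -0.02, -0.02 and -0.00 over all genes. The DMSO arrays correlated less with each other (mean r of 0.9867 to 0.9908) than those of the other REH groups (0.9964 to 0.9973). The log2 difference between 3' and 5' actin probe sets, which grows as RNA degrades, was 3.107 and 3.646 on DMSO replicates 1 and 3 against 2.363 to 2.867 on the other REH arrays. Without both of these replicates, an alternative chosen after seeing the data, limma called 0 members with EPZ004777 (10 higher at an unadjusted p under 0.05), 0 with MI-2-2 (5 higher and 2 lower) and 4 with the combination. This leaves 1 DMSO array, assumed to vary like the other groups. Single arrays also decided counts here. Without DMSO replicate 3, 8 members were called with EPZ004777. With MI-2-2, 0 were called without EPZ004777 replicate 1, combination replicate 2 or any MI-2-2 array, and 8 without DMSO replicate 2. With the combination, 6 were called without combination replicate 1 and 5 without combination replicate 2.

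IFI44L read 4.65, 5.19 and 4.54 with DMSO in REH, 5.87, 5.36 and 5.83 with EPZ004777, 5.30, 5.33 and 4.98 with MI-2-2, and 6.12, 5.92 and 6.03 with the combination. It rose by 0.89 (SE 0.18, adjusted p = 0.0142) with EPZ004777 and by 1.23 (SE 0.18, adjusted p = 0.00138) with the combination, and its MI-2-2 arrays overlapped with DMSO. EPSTI1 read 4.52, 4.98 and 4.72 with DMSO, 5.60, 5.69 and 5.51 with EPZ004777, 5.02, 4.92 and 4.62 with MI-2-2, and 5.31, 5.43 and 5.42 with the combination, rises of 0.86 (SE 0.13, adjusted p = 0.00239) and 0.65 (SE 0.13, adjusted p = 0.00964) with the first and last. IFITM1, at 9.90, 9.86 and 9.95 with DMSO, read 10.49, 10.51 and 10.35 with EPZ004777 and 10.63, 10.79 and 10.54 with the combination. The treated arrays were all above DMSO, by 0.55 and 0.76. GBP1 read 7.03, 7.08 and 6.96 with DMSO, 7.46, 7.52 and 7.49 with EPZ004777, and 7.71, 7.47 and 7.59 with the combination, rises of 0.47 and 0.57. IFIT1 (0.64), IFITM3 (0.58), SAMD9 (0.50), CMPK2 (0.48) and IFITM2 (0.38) also rose with the combination.

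ISG20, an exonuclease acting on RNA, read 7.88, 8.07 and 8.14 with DMSO in REH, 7.54, 7.52 and 7.46 with MI-2-2, and 7.40, 7.59 and 7.75 with the combination, changes of -0.53 and -0.45 without overlap. IRF7 (-0.64) and IRF9 (-0.61) fell with the combination. Of 12 fits that leave out 1 REH array, the call was lost in 5 for ISG20 with MI-2-2, and with the combination in 2 for ISG20 (without combination replicate 1 or 2), 7 for IRF7, 9 for IRF9 and 6 for IFIT1. IFI44L lost its call with EPZ004777 without EPZ004777 replicate 1 or 3 or DMSO replicate 1 (highest adjusted p 0.0757). The combination differed from EPZ004777 alone for 0 members (0.0648% and 0.0432% of all genes higher and lower), with 0 higher and 1 lower at an unadjusted p under 0.05 in limma. Against MI-2-2 alone, IFI44L (0.82) and IFITM1 (0.46) were higher and 0 members lower (1.63% and 0.18%, 1.81% in either direction), a count that was 0 or 1 when single arrays were left out in 9 fits. Of 5 monocyte and macrophage markers tested in REH, 1 rose with EPZ004777 and 1 fell with the combination.

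**Figure D3:**
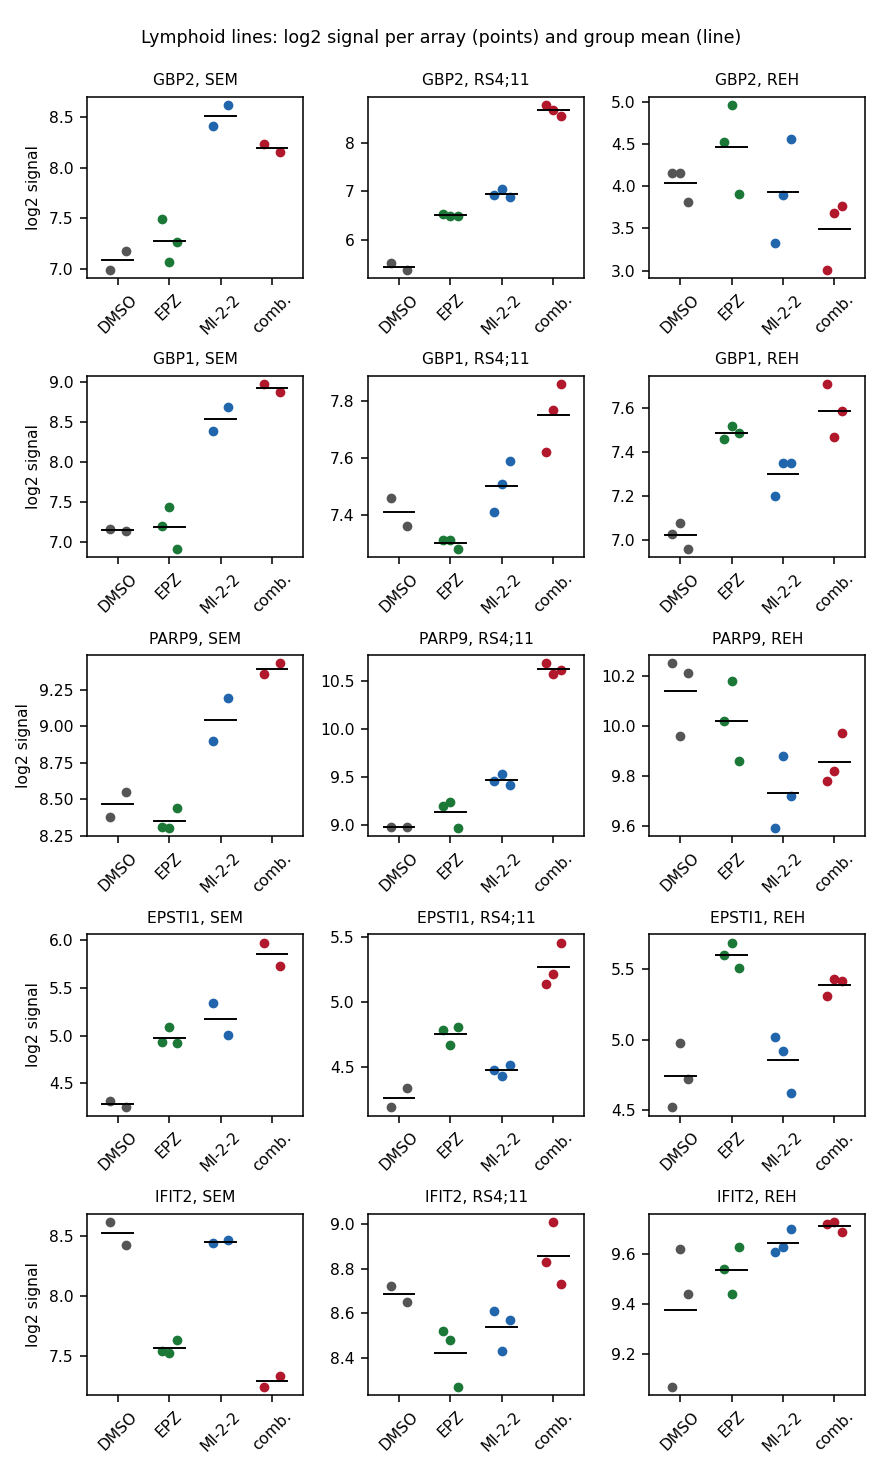
Log2 signal of GBP2, GBP1, PARP9, EPSTI1 and IFIT2 on every SEM, RS4;11 and REH array, by treatment (EPZ stands for EPZ004777, comb. for the combination); points are arrays and lines are group means. GBP2 and PARP9 lie highest with the combination in RS4;11, GBP1 rises with MI-2-2 and the combination in SEM, and IFIT2 is lower with EPZ004777 and the combination in SEM; GBP2 was below the filter in REH.

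The effects of the 3 lymphoid lines, which received the same doses for the same time, were compared in 1 fit of 32 arrays with 39 members tested. For EPZ004777, SEM minus RS4;11 gave 0 higher and 4 lower members (1.98% and 1.94% of all genes), USP18 (-1.11, SE 0.21, adjusted p = 0.00224), OAS1 (-0.74), IFIT2 (-0.70) and HERC5 (-0.57). The count was 2 without RS4;11 DMSO replicate 2 or SEM DMSO replicate 3 and 1 without RS4;11 DMSO replicate 3 or SEM DMSO replicate 2. For MI-2-2, 7 members were higher and 0 lower in SEM (4.1% and 2.59%), led by GBP1 (1.29, SE 0.16, adjusted p = 6.87e-06), IFITM1 (1.26, SE 0.14, adjusted p = 1.1e-06) and IFIT1 (1.02), which was below the filter in SEM. This count was 3 without SEM MI-2-2 replicate 3 and 4 without RS4;11 MI-2-2 replicate 1 or any DMSO array of RS4;11 or SEM. For the combination, 4 were higher and 4 lower (6.29% and 6.5%). GBP1 (1.43), BST2 (0.64) and MX2 (0.61) rose more in SEM, and GBP2 (-2.11, SE 0.39, adjusted p = 0.000372), IFIT2 (-1.41) and PARP9 (-0.71) had the lower effect there. Calls were lost for BST2 without RS4;11 DMSO replicate 3, SEM combination replicate 3 or SEM DMSO replicate 3 (highest adjusted p 0.104), for MX2 without RS4;11 DMSO replicate 2 (0.0603), for IFIT2 with EPZ004777 without RS4;11 DMSO replicate 3 or SEM DMSO replicate 2 (0.0865), and, in 7 of the 32 fits for OAS1 with EPZ004777 and 5 for IFIT1 with MI-2-2.

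The mean effect in the KMT2A-AFF1 lines RS4;11 and SEM was also set against that in REH. For EPZ004777 it was lower for 4 members and higher for 0 (2.77% and 2.49% of all genes), among them IFIT3 (-0.89), IFIT2 (-0.77) and IFIT1 (-0.72), and the count was 11 without REH DMSO replicate 3. For MI-2-2 it was higher for 8 and lower for 2 (7.93% and 5.73%). GBP2 (1.58), PARP9 (0.94) and MX2 (0.89) were higher, and HERC5 (-0.45) and IFITM3 (-0.33) were lower. For the combination it was higher for 10 and lower for 7 (10% and 10.6%). GBP2 differed by 2.72 (SE 0.31, adjusted p = 3.55e-07), PARP9 by 1.56 (SE 0.13, adjusted p = 2.77e-09) and MX2 by 1.15, while IFI44L (-1.27), IFIT2 (-0.88) and IFIT1 (-0.66) differed the other way. IFI44L was below the filter in RS4;11 and SEM and IFIT1 in SEM, so their differences rest in part on probe sets below it. The call was lost for IFIT1 in 23 of the 32 fits with EPZ004777 and 5 with the combination, and for IFITM3 in 28 with MI-2-2. GBP2 was below the filter in REH, with log2 signals of 3.01 to 4.96 over all its arrays.

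In the mouse MLL-AF9 cells more members were called with the combination than with either compound, as were more of all genes. Of 31 tested, 6 rose and 0 fell with EPZ004777 (4.22% and 1.38% of all genes), 2 rose and 0 fell with MI-2-2 (3.24% and 2.02%), and 24 rose and 1 fell with the combination (28.5% and 36.2%). In limma 1 member was lower with EPZ004777 and 3 with MI-2-2 at an unadjusted p under 0.05. In either direction, 5.6%, 5.26% and 64.7% of all genes were called. The medians were 0.32, 0.13 and 1.22, against -0.03, -0.02 and -0.10 over all genes. Over the 30 members above the filter percentile on some arrays of all 4 groups, 6, 2 and 23 rose and 0, 0 and 1 fell. The combination arrays stood apart from each other and from the rest. Their correlations within the group were 0.9624 to 0.9779, and their actin 3' minus 5' differences were 0.478, 1.124 and 1.991 and those of GAPDH 0.597, 1.504 and 2.047 on replicates 1 to 3, against 0.377 to 0.628 and 0.44 to 0.654 on the other arrays. Without combination replicates 2 and 3, an alternative chosen after seeing the data, 27 members were called with the combination, 14 with EPZ004777 and 9 with MI-2-2. This leaves 1 combination array, which is assumed to vary like the other groups. Without combination replicate 1, 12 were called with EPZ004777 and 7 with MI-2-2, and 4 were called with MI-2-2 without DMSO replicate 1.

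Ifitm3 rose in all treated groups. It read 10.66, 10.18 and 10.11 with DMSO, 12.53, 12.62 and 12.79 with EPZ004777, 12.45, 12.33 and 12.36 with MI-2-2, and 13.94, 13.84 and 13.75 with the combination, rises of 2.33 (SE 0.14, adjusted p = 4.84e-06), 2.06 (SE 0.14, adjusted p = 1.17e-05) and 3.53 (SE 0.14, adjusted p = 8.35e-09). Isg20 read 7.69, 7.47 and 7.58 with DMSO, 8.22, 8.41 and 8.61 with EPZ004777, 8.37, 8.51 and 8.55 with MI-2-2, and 9.60, 9.80 and 9.68 with the combination. It too was higher on every treated array, by 0.83, 0.90 and 2.11. Ifit1 read 4.45, 5.56 and 5.76 with DMSO, 7.77, 7.61 and 6.82 with EPZ004777, 6.16, 6.30 and 6.05 with MI-2-2, and 7.96, 7.10 and 6.97 with the combination, rises of 2.14 (SE 0.37, adjusted p = 0.00569) with EPZ004777 and 2.09 (SE 0.37, adjusted p = 0.000545) with the combination. Ifit2 (0.93), Ifih1 (0.65) and Ifitm2 (0.42) also rose with EPZ004777.

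The largest rise with the combination was that of Oas2, which read 7.08, 7.53 and 7.15 with DMSO, 7.59, 7.42 and 7.53 with EPZ004777, 7.39, 7.61 and 7.20 with MI-2-2, and 10.08, 11.64 and 11.78 with the combination. The combination arrays alone stood above the rest, and the change was 3.92 (SE 0.36, adjusted p = 4.08e-06). Rigi read 6.88, 7.10 and 7.07 with DMSO and 9.55, 10.34 and 10.51 with the combination, a rise of 3.12 (SE 0.22, adjusted p = 5.1e-07). Samd9l read 10.29, 10.50 and 10.51 with DMSO, 11.12, 11.03 and 10.64 with EPZ004777, 10.53, 10.78 and 10.78 with MI-2-2, and 13.16, 13.45 and 13.45 with the combination, a rise of 2.92 (SE 0.14, adjusted p = 3.8e-08). On the combination arrays Oas2 and Rigi were lowest on replicate 1. Sp110 read 7.38, 7.82 and 7.83 with DMSO and 9.42, 10.77 and 11.05 with the combination, a rise of 2.74 on a probe set that may bind other transcripts.

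All 4 transcription factor members, Irf7 (1.73), Irf9 (1.37), Irf1 (1.25) and Stat2 (1.22), rose with the combination in the mouse cells, as did all 3 oligoadenylate synthetases tested, with Oas3 at 2.42 and Oas1a at 1.00. Dhx58 (2.43), Cmpk2 (2.33), Mx1 (1.66), Ifi27 (1.27), Rsad2 (1.19) and Epsti1 (0.85) rose too. Mx1 was above the filter percentile on 4 arrays, all with DMSO or the combination, so its rise was favoured by the filter. Bst2 was the member that fell. It read 9.57, 9.53 and 9.49 with DMSO, 9.83, 9.85 and 9.88 with EPZ004777, 9.97, 10.02 and 9.98 with MI-2-2, and 8.84, 7.90 and 7.99 with the combination, a change of -1.29 (SE 0.20, adjusted p = 0.000199). Against EPZ004777 alone the combination had 19 members higher and 1 lower (28.6% and 34.8% of all genes), and against MI-2-2 alone 25 higher and 1 lower (28.9% and 33.8%). Mx1 is among the higher members of both, and its direction there was fixed by the filter. Oas2 (3.65 and 3.77), Sp110 (3.12 and 3.14) and Rigi (2.83 and 2.75) led both, and Bst2 (-1.61 and -1.75) was the lower one in both.

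**Figure D4:**
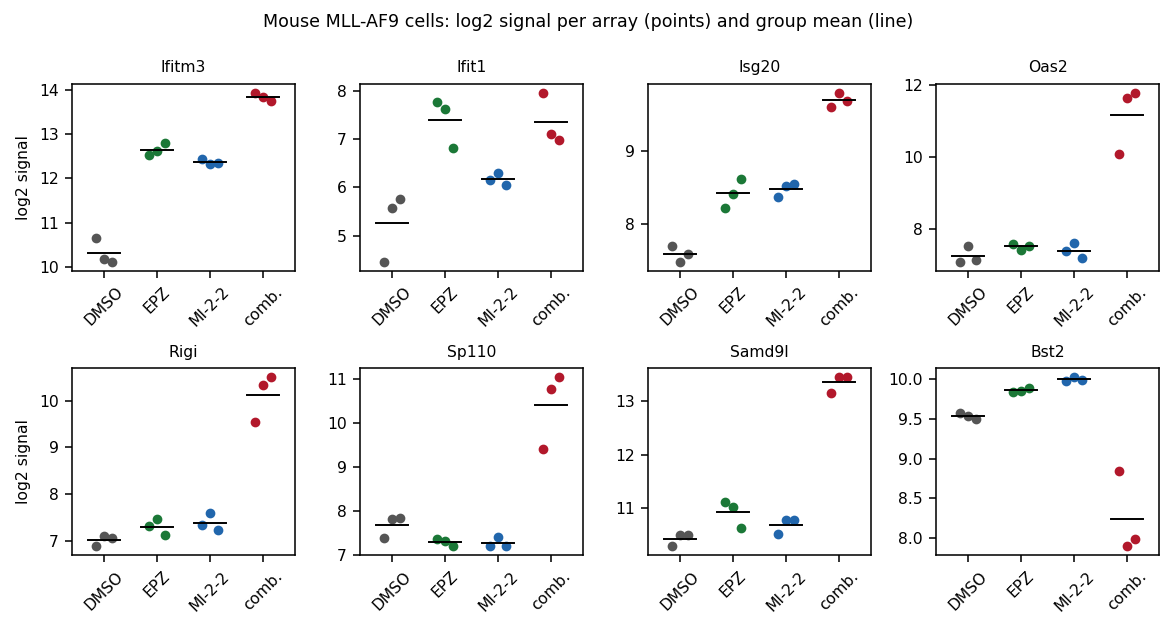
Log2 signal of Ifitm3, Ifit1, Isg20, Oas2, Rigi, Sp110, Samd9l and Bst2 on every mouse MLL-AF9 array, by treatment (EPZ for EPZ004777, comb. for the combination); points are arrays and lines are group means. Ifitm3 and Isg20 are higher on all treated arrays, Oas2, Rigi, Sp110 and Samd9l were called with the combination and not with a single compound, and Bst2 falls with it.

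Pathway genes outside the list also rose with the combination in the mouse cells, 7 of 9 receptors and kinases and 7 of 14 sensors and adaptors, where 0 and 2 fell. Ifnlr1 (5.67), Ifi204 (4.50) and Tlr7 (3.74) led. With the single compounds, 0 genes of these lists were called except 2 transcription factors that fell with MI-2-2, among them Irf8 (-2.46). Monocyte and macrophage markers rose on the same arrays (4, 4 and 11 of 12 tested), with mean log2 signals of 8.48 to 9.31 with DMSO, 9.30 to 9.91 with EPZ004777, 9.37 to 9.46 with MI-2-2 and 10.96 to 11.35 with the combination, and their part in the members' changes was not tested. Myeloid progenitor markers rose for 3, 3 and 3 of 6 tested and fell for 0, 0 and 1. T and NK cell markers rose for 1, 1 and 2 of 4 and 0 fell. Stromal and epithelial markers rose for 1, 1 and 1 of 4 and fell for 1, 1 and 2.

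Across the models, members differed in direction as well as size. GBP2 rose in 7 of the 9 comparisons in which it was tested and fell in 0. EIF2AK2 fell in the 3 MOLM-13 comparisons and was called in none of the other 12, and HERC6 likewise. IFIT5, ISG15, USP18, XAF1, OASL, CXCL10 and CXCL11 also had no called rise in any comparison in which they were tested. OASL and CXCL11 were tested in 3 comparisons, all in MOLM-13, and CXCL10 in 6. In MOLM-13 CXCL10 was above the filter with DMSO alone and could not rise. MOLM-13 and the mouse cells, which share the fusion partner MLLT3, the doses and the time, are shown side by side with no test between species. With the combination, RIGI changed by -0.26 in the human line and 3.12 in the mouse cells, SAMD9L by -0.59 and 2.92, and IRF9 by -0.97 and 1.37. OAS2 read -4.06 and 3.92, but in MOLM-13 it was above the filter with DMSO alone and had to be lower with treatment.

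**Figure D5:**
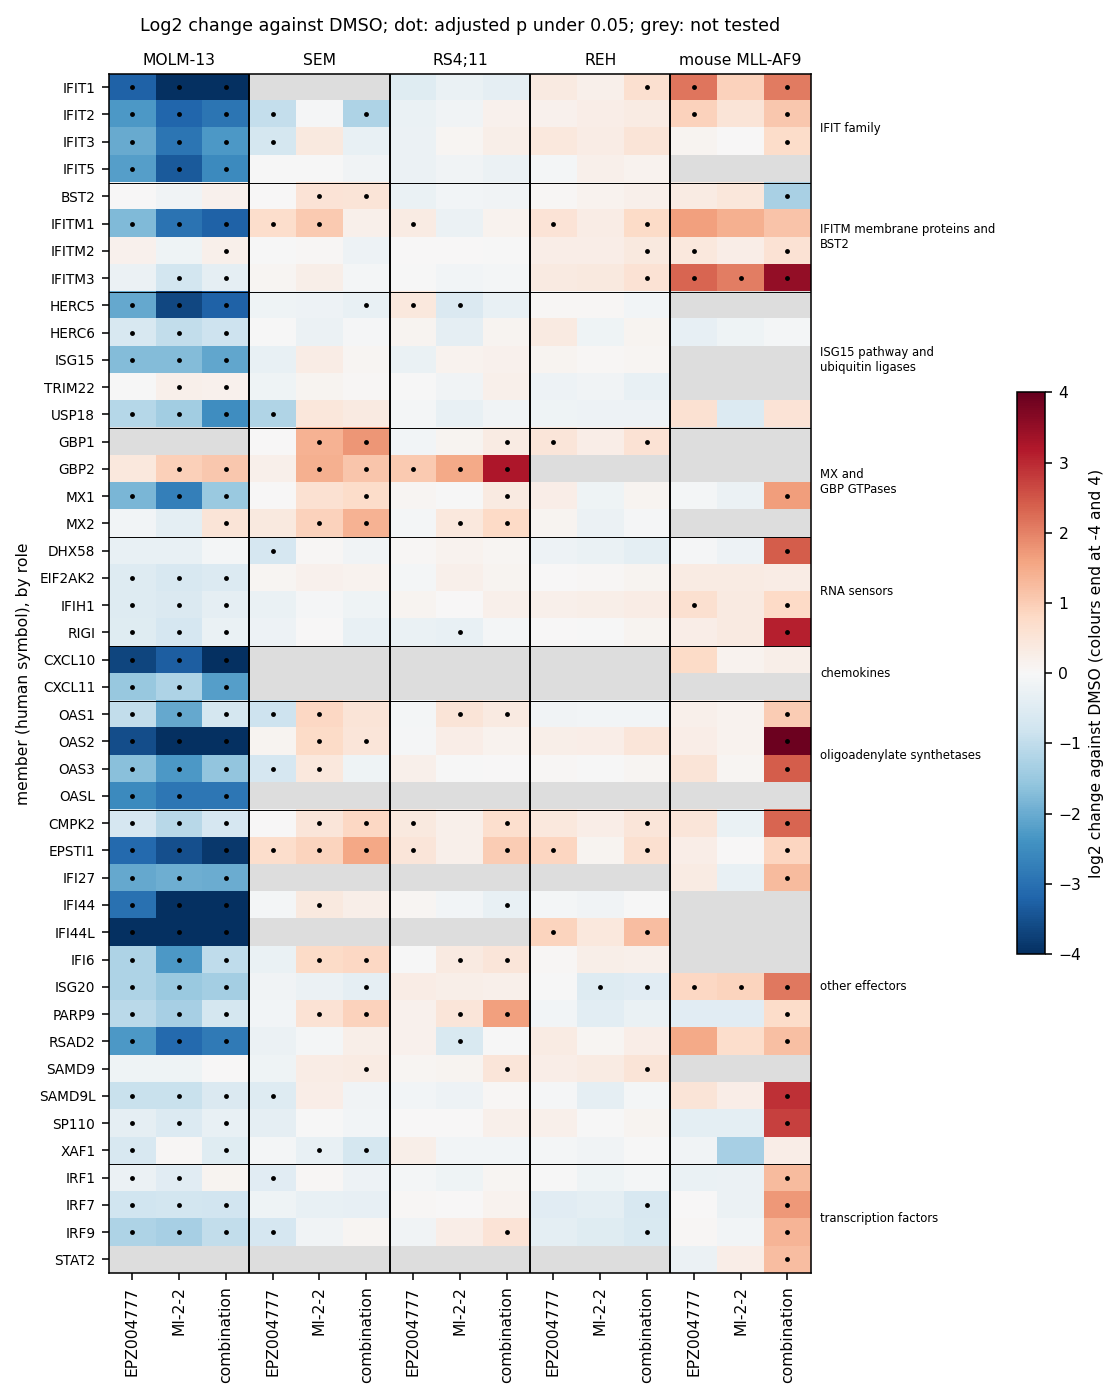
Log2 change of each member in 15 treatment minus DMSO comparisons (5 models by 3 treatments), coloured from -4 (lower) to 4 (higher); dots mark limma adjusted p under 0.05 and grey cells were not tested. The MOLM-13 columns are mostly lower, the mouse combination column is mostly higher, and the lymphoid columns hold smaller changes in both directions.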

How the data were processed

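RNA of 5 cell models was hybridised to Affymetrix expression arrays. The authors deposited a log2 signal for every probe set, after robust multi-array averaging (RMA), and the submitters' processing notes name affy and R 3.0.2. Such values understate changes of dim probe sets, and the number of arrays, 2 or 3 a group, limits the precision. Probe sets were named from the platform annotation. A single symbol was given for 41097 of 54675 human and 34958 of 45101 mouse probe sets. Several symbols were given for 1801 and 932, and no symbol for 11777 and 9211. Control probe sets and those with several symbols were left out. Each gene was read from the probe set with the highest mean, and genes that passed percentile 40 of an array's signals in 2 or more arrays were tested with limma 3.58.1 in R 4.3.3, within each model, with Benjamini-Hochberg adjustment over all genes tested and a threshold of 0.05. The code was tested on simulated data with known changes.

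The members, gene lists and markers were chosen with earlier results of these data known. Values on every array are given for up to 5 members with the largest called rises and falls per model and treatment whose arrays did not overlap with DMSO, and for further members chosen to stand for each role. For differences between treatments or lines, up to 3 in each direction are named. Correlations of deviations between same-numbered arrays ranged from -0.473 to 0.48. Their medians were -0.057, -0.104, -0.094 and -0.035 in RS4;11, SEM, REH and MOLM-13, below those of other arrays, so replicate numbers were not taken as pairs. In the mouse cells the median was 0.099, against -0.068 for arrays with other numbers. Alternatives were quantile normalization, no filter, the mean of all probe sets and the probe set with the highest mean within the fit. Further ones were probe sets specific to 1 gene alone, the replicate block and leaving out each array. Others, chosen after seeing the data, were a covariate for actin 3' to 5' signal, pairs of arrays left out, and the DMSO fit without MOLM-13.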

Additional observations from a re-analysis of the deposited data

Results flagged for a closer look

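The effects of the same compound differed between cell lines for several members, by the interaction test of limma over the 32 arrays of RS4;11, SEM and REH (adjusted p under 0.05). All values are differences of log2 changes. For EPZ004777, the effect in SEM minus that in RS4;11 was -1.11 for USP18, -0.74 for OAS1 and -0.70 for IFIT2. For MI-2-2 this difference was 1.29 for GBP1, 1.26 for IFITM1 and 1.02 for IFIT1. For the combination it was 1.43 for GBP1, 0.64 for BST2, 0.61 for MX2, -0.71 for PARP9, -1.41 for IFIT2 and -2.11 for GBP2.

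Averaged over RS4;11 and SEM, the effect less that of REH was -0.89 for IFIT3, -0.77 for IFIT2 and -0.72 for IFIT1 with EPZ004777. With MI-2-2 it was 1.58 for GBP2, 0.94 for PARP9, 0.89 for MX2, -0.33 for IFITM3 and -0.45 for HERC5. With the combination it was 2.72 for GBP2, 1.56 for PARP9, 1.15 for MX2, -0.66 for IFIT1, -0.88 for IFIT2 and -1.27 for IFI44L. GBP2 was below the filter in REH, IFI44L in RS4;11 and SEM, and IFIT1 in SEM, so their differences rest in part on probe sets below it. The actin 3' to 5' difference in SEM and the DMSO arrays of REH that stand apart, both described above, touch these values, and their part was not tested.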

How the results depend on the processing

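The numbers of members called in MOLM-13 stayed within 1.5 times of the main value under all alternatives that were run. The numbers that moved further follow, and the cause was not tested unless the alternative itself uses fewer arrays or probe sets. With the replicate block, 6 members were called in SEM with EPZ004777, 9 with MI-2-2 and 3 for the combination minus MI-2-2. In REH the block gave 0 with MI-2-2, 7 with the combination and 0 for the combination minus MI-2-2. For the difference between SEM and RS4;11 it gave 2 with EPZ004777 and 4 with MI-2-2, and for RS4;11 and SEM minus REH 2 with EPZ004777. Same-numbered arrays of these lines had lower median correlations than arrays with other numbers, so these counts are not read as weaker effects. With no filter, 3 were called in RS4;11 with EPZ004777. With probe sets specific to 1 gene, 5 were called in RS4;11 with MI-2-2, 2, 6 and 1 in REH with EPZ004777, the combination and the combination minus MI-2-2, and 6 for RS4;11 and SEM minus REH with MI-2-2. In REH with MI-2-2, quantile normalization gave 0 and the mean of probe sets 2. With the actin covariate, SEM gave 3 with EPZ004777 and 0 with MI-2-2, the combination and the combination minus EPZ004777. Without DMSO replicates 1 and 3, REH gave 0, 0, 4 and 4 with EPZ004777, MI-2-2, the combination and the combination minus MI-2-2. Without combination replicates 2 and 3, the mouse cells gave 14 with EPZ004777 and 9 with MI-2-2. These 2 alternatives leave 1 array in a group, assumed to vary like the other groups. The F test over DMSO arrays called 25 members without MOLM-13.

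Signs turned in 4 cases. With the actin covariate in SEM with MI-2-2, EPSTI1 read -0.56 and XAF1 0.05. With probe sets specific to 1 gene, PARP9 read -0.05 in RS4;11 with MI-2-2 and -0.00 for RS4;11 and SEM minus REH.

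Leaving out each array in turn gave the following ranges of members called. They were 1 to 6, 4 to 9 and 8 to 12 in RS4;11 with EPZ004777, MI-2-2 and the combination, and 14 to 17 and 9 to 13 for the combination minus each. In SEM they were 2 to 12, 8 to 16 and 10 to 16, and 14 to 23 and 2 to 5. In REH they were 3 to 8, 0 to 8 and 5 to 15, and 0 to 3 for the combination minus MI-2-2. In MOLM-13 they were 33 to 35, 33 to 37 and 34 to 38, and 8 to 12 and 13 to 21. In the mouse cells they were 5 to 12, 2 to 7 and 24 to 27. For SEM minus RS4;11 they were 1 to 6, 3 to 9 and 7 to 12, for RS4;11 and SEM minus REH 3 to 11, 7 to 14 and 14 to 21, and for the DMSO F test 40 to 42. Among values of named members under these fits, 2038 kept direction and call, 207 lost the call and 0 changed sign.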
